A study of Mus musculus with 199 samples.

Results

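Gene expression was compared between T cells sorted from the livers of tumour-bearing mice given a CXCR2 inhibitor together with an antibody to PD-1 and T cells from mice given neither drug. The libraries were chosen by title, which gave 5 combination and 6 untreated libraries, 11 of the 199 in the series. All mice were male wild-type C57BL/6 animals of an in-house colony that received diethylnitrosamine (DEN), a liver carcinogen, and the ALIOS diet, a fat- and sugar-rich diet that produces steatohepatitis. The combination label reads DEN ALIOS CXCR2i aPD1. Of the 6 untreated libraries, 5 are labelled DEN ALIOS only and 1, replicate 3, carries the additional word Vehicle. Age, dose and duration are not given in the sources used here, and none of these 11 labels names an isotype antibody. Both single-drug groups serve as side references: 5 libraries labelled DEN ALIOS aPD1, and 6 titled CXCR2i, of which 4 carry the label aPD1 isotype. Each library names its own animal, so n counts animals. Cells were sorted by flow cytometry for CD3, the signalling part of the T cell receptor complex, at a stated purity of at least 97%. The titles say liver, whereas the protocol names tumours and blood, so the share of tumour-infiltrating cells in each library is not known.

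PD-1, encoded by Pdcd1, is an inhibitory receptor that activated T cells display, and antibodies against it lift this brake. CXCR2 is a chemokine receptor that draws neutrophils into inflamed tissue and is scarce on T cells. The liver holds many unconventional T cells beside CD4 and CD8 cells, among them natural killer T cells and gamma delta T cells, some of which make the cytokine IL-17.

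Levels are in CPM, gene counts scaled by TMM to a common library total. Fold changes are on the log2 scale, each with its standard error, and come from edgeR's quasi-likelihood test in fits that hold all 22 liver T cell libraries of DEN ALIOS mice. The words rose and fell are kept for genes with a Benjamini-Hochberg p below 0.05. Gene counts per library ran from 5107727 to 9360666, with a median of 7240358, and no library was shallow. The sequencing run, read from the library name, divides the comparison. All 6 untreated libraries and combination replicates 1 and 5 belong to run set A, and combination replicates 2, 3 and 4 belong to run set B. With run set as a term, the contrast therefore rests on combination replicates 1 and 5 against the 6 untreated libraries. Without the term all 5 combination libraries count, but run and treatment partly coincide and cannot be told apart.

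Siglech and erythroid RNA were lower in the combination libraries of run set B than in most libraries of run set A. Siglech, a receptor of plasmacytoid dendritic cells, ran from 39.7 to 248 CPM in untreated libraries and stood at 35.7 and 134 CPM in combination replicates 1 and 5, against 0.386, 0.152 and 0.646 CPM in replicates 2, 3 and 4. Haemoglobin and other erythroid markers summed to between 18.4 and 6008 CPM in untreated libraries and to 2798 and 2561 CPM in replicates 1 and 5, against 5.53, 6.22 and 37.6 CPM in replicates 2, 3 and 4, the last above the lowest untreated library. The single-drug libraries, none of run set A, were low too. Siglech was at most 2.05 CPM in aPD1 and 11.1 CPM in CXCR2i libraries. Their erythroid sums ran from 6.91 to 24.6 and from 1.60 to 98.7 CPM. Combination replicate 3 held hepatocyte RNA, with a summed marker level of 4551 CPM and Alb, the albumin gene, at 2072 CPM, while the hepatocyte sum of the other 10 libraries was at most 924 CPM. Macrophage markers summed to 32.3 to 757 CPM in untreated and 43.1 to 219 CPM in combination libraries, and B cell and plasma cell markers to 124 to 469 and 100.3 to 218 CPM. Endothelial markers summed to 45.6 to 258 and 56.9 to 93.1 CPM, neutrophil markers to 4.18 to 77.4 and 10.6 to 108 CPM, with Camp and Ly6g under 1 CPM in all 11 libraries, and natural killer cell markers to 446 to 666 and 372 to 680 CPM. Platelet markers summed to at most 13.7 CPM, stellate cell and fibroblast markers to at most 35.6 CPM, and epithelial markers to at most 104 CPM outside combination replicate 3, where they reached 335 CPM. With and without run set the median fold changes were -2.20 and -2.83 for 12 B cell and plasma cell genes, 10 below 0 in each fit. They were -1.92 and -1.19 for 11 macrophage, -2.76 and -1.85 for 7 endothelial and -0.57 and -1.36 for 10 dendritic cell genes, all below 0. The 7 neutrophil genes had 0.91 and 0.50, and the hepatocyte, erythroid and epithelial medians changed sign with the term. No gene of these marker lists was called in either fit. In bulk RNA, fewer cells of a type and less RNA per cell cannot be told apart.

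Combination replicates 1 and 5 differed from the untreated libraries in read composition. Entries that matched no annotated feature made up 32.8% and 29.0% of their reads, against 18.2% to 23.1% in untreated libraries and 19.0% to 22.8% in the other combination libraries. With genes split into 5 classes by exon length, the level of the longest class relative to the shortest was 0.41 and 0.24 on the log2 scale in replicates 1 and 5, relative to untreated libraries. The same index ran from -0.14 to 0.17 in untreated libraries and from -0.11 to 0.10 in combination replicates 2, 3 and 4. In aPD1 libraries the share reached 28.959% and the index 0.229, just under the 28.985% and 0.237 of combination replicate 5. In CXCR2i libraries they reached 26.7% and 0.31, this index lying between those of replicates 1 and 5. The nuclear RNA Malat1 stood at 25610 and 22160 CPM in replicates 1 and 5, at 12930 to 25170 CPM in untreated libraries and at 15730, 16660 and 11150 CPM in replicates 2, 3 and 4.

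**Figure D1:**
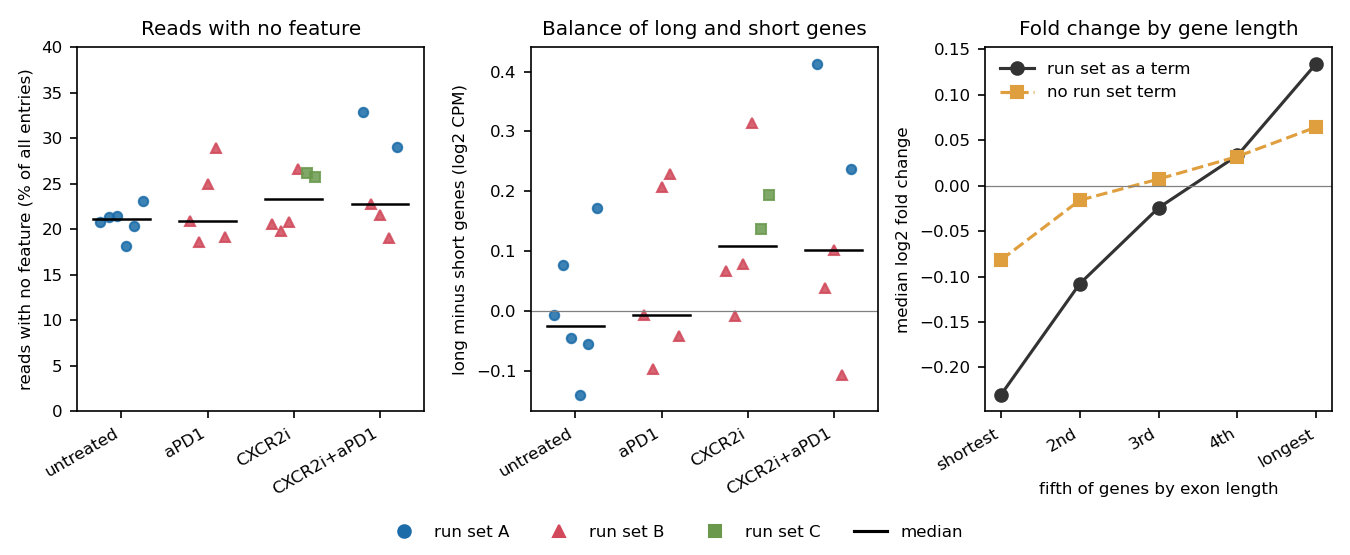
Left, the share of entries with no annotated feature, and middle, the log2 level of long relative to short genes, in each liver T cell library by treatment, with run set by colour and shape and the median as a line. Right, the median log2 fold change of combination against untreated in 5 classes of genes by exon length, in both fits: with run set as a term it climbs from -0.23 in the shortest to 0.13 in the longest class, and the 2 run set A combination libraries have shares of 32.8% and 29.0%, above all untreated ones.

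The T cell label was checked on its markers. Cd3e, a CD3 chain, was at a median of 588 CPM (406 to 728) in untreated libraries and at 555, 476, 680, 656 and 624 CPM in combination replicates 1, 5, 2, 3 and 4. The groups overlapped and the fold change was -0.19 ± 0.24 (adjusted p = 0.739, edgeR). Cd4, the helper T cell co-receptor, ran from 203 to 437 CPM in untreated and from 196 to 369 CPM in combination libraries. Cd8a, the cytotoxic T cell co-receptor, ran from 418 to 886 and from 473 to 857 CPM, and neither gene passed the test. Among 19 T cell identity genes none was called, and their median fold change was -0.07 with run set and 0.05 without. Bcl11b, a transcription factor that maintains T cell identity, was the single list member whose groups did not overlap, at 319 to 402 CPM untreated and 417, 407, 456, 466 and 458 CPM in combination libraries (0.17 ± 0.20, adjusted p = 0.71, edgeR).

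The genes of the drug targets did not pass any test. Pdcd1 had an untreated median of 155 CPM (55.0 to 205) and stood at 133, 77.0, 409, 261 and 128 CPM in combination replicates 1, 5, 2, 3 and 4. Replicates 2 and 3 lay above every untreated library and the other 3 within the untreated range. The exact two-sided permutation test over the 11 libraries gave p = 0.409, with 0.00433 the smallest p this design allows. That test exchanges libraries between run sets, and the fitted fold change turned sign with the term, at -0.38 ± 0.54 with run set and 0.56 ± 0.43 without (adjusted p = 0.772 and 0.641, edgeR). Cd274, which encodes the PD-1 ligand PD-L1, was at 38.3 to 50.8 CPM untreated and at 36.5, 39.9, 63.4, 41.7 and 42.1 CPM in the same order (exact permutation p = 0.825). Cxcr2 was near the counting floor in all but untreated replicate 2, which held 4.07 CPM. The other 5 untreated libraries held at most 0.652 CPM and the combination libraries at most 0.411 CPM, so it was not tested in the fit (exact permutation p = 0.604).

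With run set as a term, 22 of 13005 genes passed the test (0.169%), 15 higher (0.115%) and 7 lower (0.0538%) in combination libraries. The genes that rose include 3 zinc finger genes named Zfp, genes of chromatin and transcription, a long non-coding RNA and a T cell receptor segment. The genes that fell encode small respiratory chain subunits, endoplasmic reticulum chaperones, an assembly factor of the proteasome and a cap-binding protein, beside the predicted gene Gm4204. Without the run set term none passed (0%), with 1463 genes at an unadjusted p under 0.05 and 76 genes called by DESeq2 in that design. None passed either when combination replicate 1, combination replicate 5 or untreated replicate 1 was left out, with 886, 1706 and 1993 genes at an unadjusted p under 0.05. In the fit with run set, DESeq2 called 462 genes (3.57%), which included all 22.

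Among the genes that rose, Utrn, which encodes the large cytoskeletal protein utrophin, had an untreated median of 807 CPM (673 to 898) and stood at 1286 and 1187 CPM in combination replicates 1 and 5. In replicates 2, 3 and 4 it was at 848, 901 and 767 CPM, close to the untreated range (0.64 ± 0.10, adjusted p = 0.0253, edgeR). Zfp512, a zinc finger gene, followed the same pattern, with 42.2 to 52.7 CPM untreated, 83.0 and 74.0 CPM in replicates 1 and 5, and 55.3, 41.4 and 50.9 CPM in the others (0.76 ± 0.12, adjusted p = 0.0253, edgeR). Lncpint, a long non-coding RNA, was at 80.5 to 123 CPM untreated, at 232 and 205 CPM in replicates 1 and 5, and at 104, 106 and 77.2 CPM in the rest (1.18 ± 0.21). For these 3 genes the run set A combination libraries were high and those of run set B overlapped the untreated ones. Atp8a2, which encodes a membrane lipid flippase, had the largest fitted rise (2.02 ± 0.37), from 18.9 to 47.8 CPM untreated to 167 and 94.0 CPM in replicates 1 and 5 and 54.8, 31.7 and 57.3 CPM in replicates 2, 3 and 4. Crtc1, a co-activator of CREB-driven transcription, Zfp687, Zfp579, Strn3, a striatin scaffold gene, and Prdm9, a histone methyltransferase gene, rose by 0.57 to 1.14 on the log2 scale. Plekha5 and Ambra1, an autophagy regulator gene, rose by 0.56 ± 0.11 and 0.54 ± 0.11, and the remaining 2, AW554918 and the predicted gene Gm16069, by 0.80 ± 0.14 and 1.37 ± 0.22.

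Of the 22 genes only Bicra and Traj18 had 5 combination libraries clear of all 6 untreated ones, a pattern that 110 of all 13005 genes showed upward (0.846%) and 85 downward (0.654%). Bicra, a subunit gene of a BAF chromatin remodelling complex, was at 64.6 to 72.5 CPM untreated, at 99.5 and 98.4 CPM in replicates 1 and 5 and at 74.9, 73.7 and 79.8 CPM in replicates 2, 3 and 4 (0.53 ± 0.09, adjusted p = 0.0304, edgeR). Traj18 is the T cell receptor alpha joining segment that invariant natural killer T cells use, and it was at 6.11 to 9.00 CPM untreated and at 26.8, 13.7, 13.2, 11.1 and 10.3 CPM in combination replicates 1, 5, 2, 3 and 4 (1.51 ± 0.29, adjusted p = 0.0454, edgeR). All 42 tested alpha joining segments had fold changes above 0, with a median of 1.34, and 1 was called. Of the other segment families, 13 of 14 beta joining (median 0.65) and 10 of 19 alpha variable segments (0.12) were above 0. So were 4 of 18 beta variable (-0.44), 2 of 5 gamma variable (-0.41) and 2 of 2 delta variable segments (2.06). The alpha joining segments summed to 128 to 180 CPM untreated. Their sum was 464 and 305 CPM in replicates 1 and 5, and 215, 197 and 131 CPM in the other 3. Zbtb16 encodes PLZF, the defining transcription factor of natural killer T cells. It was at 1.92 and 8.62 CPM in replicates 1 and 5, within the untreated range of 0.254 to 12.0 CPM. In replicates 2, 3 and 4 it was at 19.8, 11.4 and 51.85 CPM. Its median was 85.7 CPM (9.23 to 229) in CXCR2i and 6.46 CPM (4.24 to 11.9) in aPD1 libraries. The fold change of Zbtb16 was 0.39 ± 0.95 with run set and 2.21 ± 0.78 without, and the gene was called in neither fit.

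The falls had the opposite form. Sdf2l1, a co-chaperone gene of the endoplasmic reticulum, was at 12.7 to 15.8 CPM untreated and at 5.61 and 6.99 CPM in combination replicates 1 and 5 (-1.14 ± 0.19, adjusted p = 0.0253, edgeR). In replicates 2, 3 and 4 it was at 19.3, 23.8 and 17.9 CPM, above every untreated library, so the 2 run sets differ in direction and the fold change without the term was 0.081. Canx, which encodes the chaperone calnexin (chromosome 11, 50293961 to 50325673 of GRCm38), was at 365 to 457 CPM untreated, at 255 and 328 CPM in replicates 1 and 5 and at 419, 428 and 430 CPM in the others (-0.56 ± 0.11, adjusted p = 0.0476, edgeR). Pdia6, a disulfide isomerase gene of the same compartment, just missed the threshold, with 77.4 to 87.2 CPM untreated, 56.3 and 56.0 CPM in replicates 1 and 5 and 84.7, 102 and 89.0 CPM in the rest (-0.59 ± 0.13, adjusted p = 0.0573, edgeR). Hspa5, which encodes the chaperone BiP, was at 397 to 594 CPM untreated, at 359 and 400 CPM in replicates 1 and 5 and at 560, 657 and 494 CPM in the rest (adjusted p = 0.183, edgeR). Of 25 genes for folding in the endoplasmic reticulum, a list drawn up after values were seen, 2 fell and none rose, where 0.0538% of all genes fell. In run set A 13 of the 25 had both combination libraries below all untreated ones, a pattern of 8.57% of all genes, and in run set B none did (4.04% of all genes).

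Genes of this compartment are known targets of the unfolded protein response, whose transcription factors bind the endoplasmic reticulum stress element. The promoters of the 2 members nearest the threshold on either side are shown from RefSeq windows of GRCm38.p6, each from 250 bases before to 50 after the gene start, 5′ to 3′ along the gene, with the element in capitals. The letters searched were CCAAT, then 9 bases of any kind, then CCACG, on both strands. They were found in 39 of 32851 windows (0.119%) and in those of 8 of the 22 genes of the list that had a window, Hspa5, Calr, Hsp90b1, Canx, Pdia6, Dnajc3, Creld2 and Syvn1. Sdf2l1, which fell most, was not among them.
Canx promoter, chr11:50325624-50325923, minus strand: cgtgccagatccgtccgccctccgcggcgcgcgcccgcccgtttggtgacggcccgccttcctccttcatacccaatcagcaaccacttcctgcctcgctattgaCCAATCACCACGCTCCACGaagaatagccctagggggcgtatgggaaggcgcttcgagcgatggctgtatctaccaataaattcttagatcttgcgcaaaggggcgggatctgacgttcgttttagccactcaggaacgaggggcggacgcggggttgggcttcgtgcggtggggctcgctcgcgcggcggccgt
Pdia6 promoter, chr12:17266339-17266638, plus strand: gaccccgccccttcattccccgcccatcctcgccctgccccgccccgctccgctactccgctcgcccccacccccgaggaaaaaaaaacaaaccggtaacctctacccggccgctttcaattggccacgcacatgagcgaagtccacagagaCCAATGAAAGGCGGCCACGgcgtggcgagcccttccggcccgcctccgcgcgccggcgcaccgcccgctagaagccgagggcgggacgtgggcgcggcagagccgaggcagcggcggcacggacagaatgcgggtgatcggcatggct

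Uqcr10 and Ndufa1, small subunit genes of respiratory complexes III and I, were at 10.0 to 14.5 and 11.7 to 14.2 CPM untreated. In combination replicates 1 and 5 Uqcr10 was at 7.25 and 7.14 CPM and Ndufa1 at 7.67 and 8.62 CPM, below every untreated library. In replicates 2, 3 and 4 both lay inside or above the untreated range, at 12.3 to 14.6 and 14.2 to 17.6 CPM. The fold changes with run set were -0.78 ± 0.15 and -0.70 ± 0.14. Of 41 small respiratory chain subunits tested, from such a list too, 2 fell and none rose (0.0538% of all genes fell). In a second list of 20 nuclear-encoded respiratory genes Ndufa1 alone was called, at a list median of -0.38 with run set and -0.12 without. Of these 41 genes 22 had both run set A combination libraries below all untreated ones (8.57% of all genes), and none had the 3 of run set B there (4.04%). Pomp, the proteasome maturation factor gene, was at 56.3 to 61.4 CPM untreated, at 39.97 and 45.4 CPM in replicates 1 and 5 and at 52.2, 59.8 and 61.0 CPM in the rest (-0.47 ± 0.08, adjusted p = 0.0292, edgeR). It was the only call among 34 proteasome genes, again a list drawn up after values were seen, whose median fold change was -0.35 with run set and -0.14 without, against -0.03 and 0.01 over all genes. Psmb2, a proteasome core subunit gene, was lower in all 5 combination libraries, at 18.6, 22.3, 21.4, 16.8 and 23.7 CPM in replicates 1, 5, 2, 3 and 4 against 24.4 to 33.9 CPM untreated, without passing the test (adjusted p = 0.108, edgeR). Ncbp2, which encodes the small subunit of the nuclear cap-binding complex, fell from 19.9 to 23.9 CPM to 12.3 and 14.6 CPM in replicates 1 and 5, with 17.0, 18.1 and 21.0 CPM in the others.

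The 15 genes that rose had a median exon length of 6886 bases and the 7 that fell 1231 bases, against 4173 bases over the tested genes with an annotation. Traj18, at 66 bases, rose, and Pomp and Canx, at 5216 and 4693 bases, fell. With run set as a term the median fold change climbed from -0.23 in the shortest length class to 0.13 in the longest, and without the term from -0.08 to 0.06. When the share of entries without a feature was added beside run set, no gene was called. The number at an unadjusted p under 0.05 was then 569, against 2157 without that share, and the 22 genes kept their sign. In that fit Atp8a2 had a fold change of 2.15, Utrn 0.49, Traj18 0.57, Bicra 0.34, Sdf2l1 -0.83 and Canx -0.37. The part of read composition in these calls was not tested further.

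**Figure D2:**
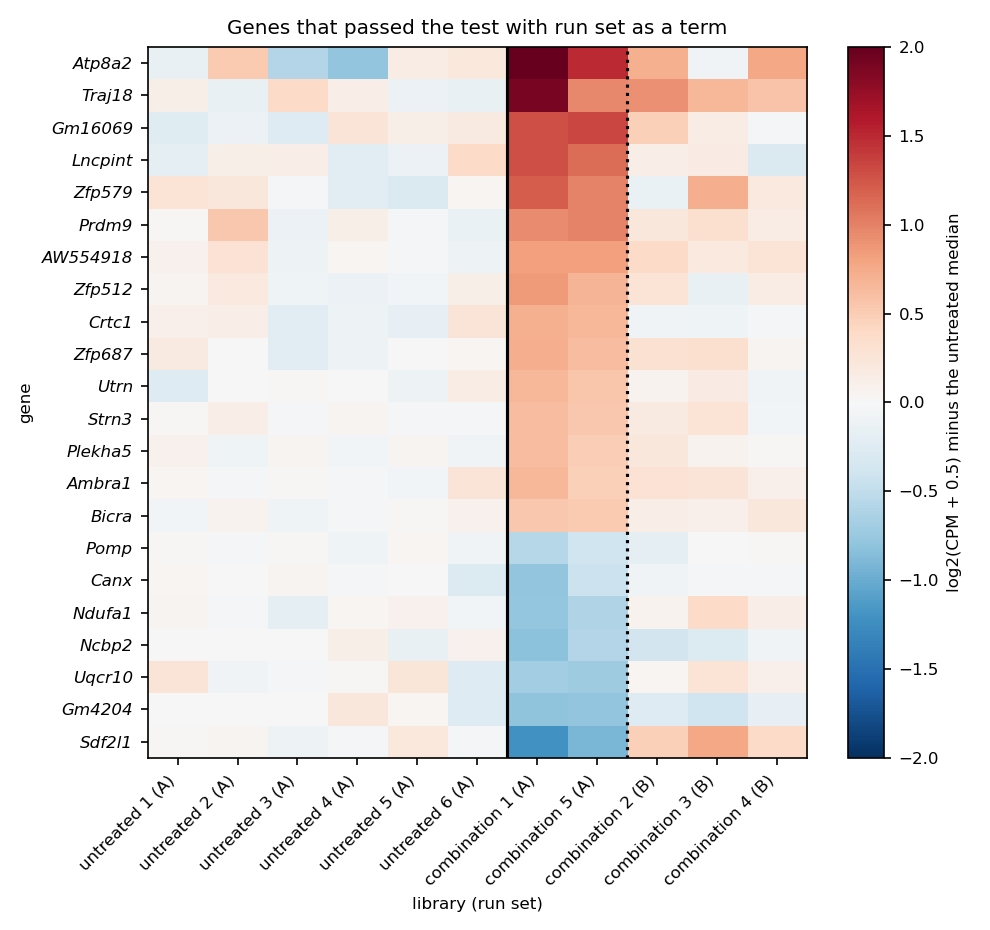
Heat map of the 22 genes that passed the test with run set as a term (rows, ordered by fold change) in the 6 untreated and 5 combination libraries (columns, run set in brackets), as log2(CPM + 0.5) minus the untreated median. Combination replicates 1 and 5 carry the strong colours, while replicates 2, 3 and 4 lie near 0 for most genes and above 0 for Sdf2l1.

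Genes of IL-17-producing T cells had higher levels in most combination libraries, and none passed the test in either fit. Il1r1, the receptor gene for interleukin 1, which drives IL-17 production, was at 1.04 to 5.20 CPM untreated and at 8.90, 9.22, 15.1, 44.4 and 36.0 CPM in combination replicates 1, 5, 2, 3 and 4, without overlap (1.65 ± 0.69, adjusted p = 0.237 with run set, and 2.97 ± 0.67, adjusted p = 0.243 without run set, edgeR). Il17a, the cytokine gene (chromosome 1, 20730905 to 20734496), was at 0 to 5.98 CPM untreated and at 10.7, 10.8, 16.9, 4.70 and 63.8 CPM in the same order. Replicate 3 overlapped the untreated libraries and the other 4 lay above them (2.23 ± 1.18 with run set and 3.22 ± 0.99 without). Il23r, the receptor gene for interleukin 23, was at 0.652 to 6.13 CPM untreated and at 4.93, 5.80, 8.75, 4.55 and 31.8 CPM in combination libraries. Of 13 tested genes of this list 10 had fold changes above 0 with run set and 12 without, with medians of 0.57 and 2.34.

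The T cell receptor genes of a fetal-derived gamma delta lineage, which pairs the variable segments Vgamma6 and Vdelta1, separated the run sets more sharply. Trdv4, the delta segment, held 0 to 0.299 CPM in untreated libraries and 0 and 1.04 CPM in combination replicates 1 and 5, but 12.7, 6.83 and 34.7 CPM in replicates 2, 3 and 4. Tcrg-V6, the gamma segment, held 0.149 to 0.763 CPM untreated, 0.548 and 0.149 CPM in replicates 1 and 5, and 4.63, 4.09 and 21.0 CPM in the rest. Sox13, a transcription factor gene of this lineage, was at 0 to 1.34 CPM untreated, at 0 and 0.149 CPM in replicates 1 and 5 and at 6.69, 5.92 and 23.9 CPM in the others. For these 3 genes the higher levels lay in run set B alone among the combination libraries, apart from 1.04 CPM of Trdv4 in replicate 5. Abi3bp and Coro2b moved with them, at 11.1, 6.07 and 33.9 and at 10.0, 13.0 and 30.5 CPM in replicates 2, 3 and 4. In replicates 1 and 5 Abi3bp was at 1.09 and 0.595 CPM and Coro2b at 4.65 and 3.57 CPM, while the highest untreated libraries held 0.598 CPM of Abi3bp and 2.99 CPM of Coro2b. Of 18 tested genes of a list for this lineage, which was drawn up after values had been seen, 14 had all 3 run set B combination libraries above all untreated ones (3.83% of all genes). The 2 run set A libraries were above them for 7 (12.4% of all genes). Adam12, Coro2b, Il1r1 and Tdrd9 were among the genes with all 5 combination libraries above all untreated ones.

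The single-drug groups show where these levels lie, and they share the untreated controls and, of the run sets, only B with the combination. In CXCR2i libraries, of which 4 are in run set B and 2 in run set C, the Il17a median was 78.5 CPM (21.0 to 678) and the Trdv4 median 49.95 CPM (9.70 to 272). In the 5 aPD1 libraries, all of run set B, the medians were 1.65 CPM (0.895 to 10.9) and 3.00 CPM (0.682 to 5.02). Maf, a transcription factor gene shared by IL-17-producing and helper T cells, was at 126 to 218 CPM untreated, at 202 and 238 CPM in combination replicates 1 and 5 and at 335, 561 and 424 CPM in replicates 2, 3 and 4. When replicates 1 and 5 were left out and no run set term was used, 14 of 13589 genes passed (0.103%), 5 higher, among them Trdv4 (7.30 ± 1.18) and Abi3bp (6.05 ± 0.90), and 9 lower. The falls included Siglech (-8.02 ± 1.40) and Ccr9 (-4.25 ± 0.57), a homing receptor gene that plasmacytoid dendritic cells also express. Both genes were low in the single-drug libraries as well. Siglech was at most 2.05 CPM in aPD1 and 11.1 CPM in CXCR2i libraries, and Ccr9 at most 4.355 and 7.935 CPM. That fit sets run set B against run set A, so drug and run cannot be told apart in it.

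**Figure D3:**
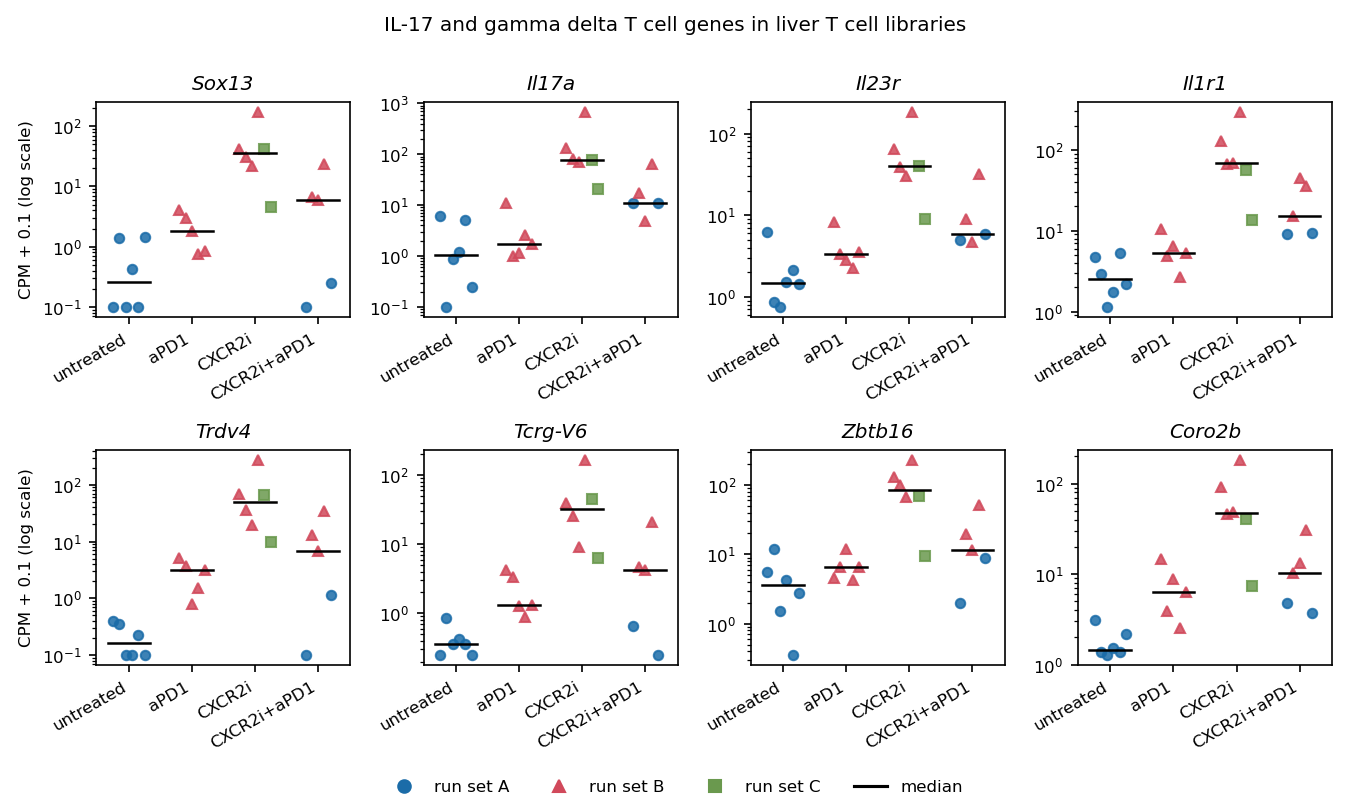
Levels of 8 genes of IL-17-producing and gamma delta T cells in each liver T cell library, as CPM + 0.1 on a log axis, by treatment, with run set by colour and shape and the group median as a line. The CXCR2i median is the highest of the 4 groups for Il17a (78.5 CPM) and Trdv4 (49.95 CPM), and for Trdv4 and Tcrg-V6 the 2 combination libraries of run set A stay near the untreated ones.

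Most cell cycle genes had lower mean levels in combination libraries, and none passed the test. Their summed level overlapped, at 1428 to 2739 CPM untreated and 1475 and 1238 CPM in combination replicates 1 and 5. In replicates 2, 3 and 4 the sum was 1506, 1054 and 1504 CPM. Of 30 tested genes 29 had fold changes below 0 in each fit, with medians of -0.66 with run set and -0.73 without, against -0.03 and 0.01 over all genes. Aurkb, which encodes the mitotic kinase Aurora B, was at 10.9 to 14.6 CPM untreated and at 6.71, 5.95, 6.69, 4.09 and 8.72 CPM in combination replicates 1, 5, 2, 3 and 4, with no overlap (-1.01 ± 0.37, adjusted p = 0.182, edgeR). Hmmr, a spindle-associated protein gene, was at 19.0 to 37.6 CPM untreated and at 15.9, 14.3, 12.6, 10.8 and 15.0 CPM (-0.87 ± 0.38, adjusted p = 0.257, edgeR). Bub1, Kif11 and Kif20a, which encode a spindle checkpoint kinase and mitotic motor proteins, also separated the groups in every library. These 5 of 30 genes compare with 0.654% of all genes. Both run set A combination libraries lay below all untreated ones for 15 of the 30 (8.57% of all genes) and all 3 run set B libraries for 6 (4.04%). Rrm2, which encodes the ribonucleotide reductase subunit made for DNA synthesis, had the smallest p of the list, at 24.2 to 57.3 CPM untreated and 14.1, 17.2, 18.8, 13.3 and 26.3 CPM in combination libraries (-1.22 ± 0.41, adjusted p = 0.153, edgeR). Mki67, the proliferation marker, overlapped between groups, at 353 to 801 and 282 to 456 CPM. Beside these values, the Aurkb median was 7.03 CPM in aPD1 and 4.61 CPM in CXCR2i libraries, while 1 CXCR2i library reached 18.1 CPM.

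**Figure D4:**
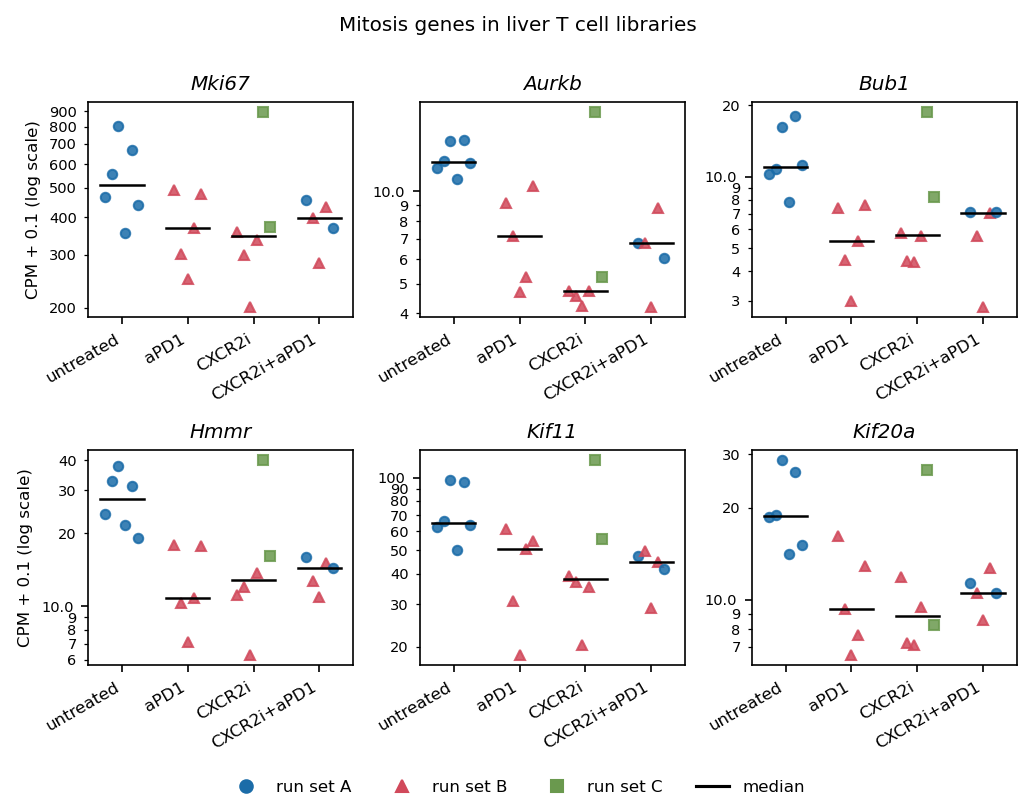
Levels of 6 proliferation and mitosis genes in each liver T cell library, as CPM + 0.1 on a log axis, by treatment, with run set by colour and shape and the group median as a line. For Aurkb, Bub1, Hmmr, Kif11 and Kif20a the 5 combination libraries lie below all 6 untreated ones, in both run sets, and for Mki67 the groups overlap.

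Effector and exhaustion genes did not separate the groups. Gzmb, the cytotoxic protease granzyme B gene, was at 142 to 778 CPM untreated and at 348, 268, 688, 740 and 508 CPM in combination replicates 1, 5, 2, 3 and 4 (-0.14 ± 0.54 with run set, 0.59 ± 0.48 without). Ifng, the interferon gamma gene, was at 24.4 to 85.1 CPM untreated and at 55.0, 57.0, 117, 79.5 and 53.5 CPM. Havcr2, which encodes the inhibitory receptor TIM-3, was at 48.5 and 37.6 CPM in replicates 1 and 5 and at 135, 191 and 75.8 CPM in the others, against 47.5 to 186 CPM untreated. Ctla4, another checkpoint receptor gene, reached 485 CPM in replicate 2 and was at 102 to 194 CPM in the other 4, against 35.9 to 136 CPM. None of 16 checkpoint genes, 14 cytotoxic genes or 17 activation genes was called, and their medians were 0.01, -0.33 and -0.01 with run set and 0.28, 0.03 and 0.23 without. For cytotoxic and activation genes the sign of the median therefore depends on the run set term.

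Regulatory T cell genes also turned with the term, at a median of -0.22 over 14 genes with run set and 0.49 without. All 3 run set B combination libraries lay above all untreated ones for 5 of the 14 (3.83% of all genes). Both run set A combination libraries did so for 0 of the 14 (12.4% of all genes). Foxp3, their defining transcription factor gene, was at 30.8 to 67.6 CPM untreated and at 40.5, 30.03, 56.0, 102 and 45.5 CPM in combination libraries, with only replicate 3 above the untreated range (adjusted p = 0.671 with run set, edgeR). Of 14 genes of naive and recirculating cells 10 had fold changes below 0 with run set and 12 without, at medians of -0.16 and -0.35, with none called. All 3 run set B combination libraries lay below all untreated ones for 4 of these 14 (4.04% of all genes). Both run set A combination libraries did so for 0 of them (8.57% of all genes). Dapl1 had the smallest p of that list (-0.78 ± 0.60 with run set, adjusted p = 0.548, edgeR). It was at 6.28 to 17.1 CPM untreated and at 4.38 and 9.66 CPM in replicates 1 and 5. In replicates 2, 3 and 4 it was at 2.19, 2.88 and 8.72 CPM. Klf2, a transcription factor gene that keeps T cells recirculating, had a fold change above 0 (0.47 ± 0.37, adjusted p = 0.563, edgeR). Klf2 was at 136 to 229 CPM untreated, at 154 and 334 CPM in replicates 1 and 5 and at 212, 105 and 209 CPM in the rest. Itga1, an adhesion gene of tissue-resident cells, was at 44.9 to 88.9 CPM untreated, at 166 and 127 CPM in replicates 1 and 5 and at 72.2, 57.6 and 97.1 CPM in the rest (1.10 ± 0.43, adjusted p = 0.20, edgeR).

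Interferon-stimulated genes had fold changes below 0 in 20 of 21 cases with run set, at a median of -0.40, and in 19 without, at -0.25, with none called. Gbp2, an interferon-induced GTPase gene, was at 69.2 to 98.2 CPM untreated, at 57.1 and 66.0 CPM in replicates 1 and 5 and at 94.97, 78.9 and 121 CPM in the others. Ifi44, another interferon-induced gene, was at 1.77 to 8.68 CPM untreated and at 0.548, 1.49, 1.93, 1.21 and 2.26 CPM in combination replicates 1, 5, 2, 3 and 4 (-2.13 ± 0.93, adjusted p = 0.255, edgeR). Immediate early genes, which sorting and handling also induce, had a median of 0.54 over 18 genes, with Jun at 307 and 375 CPM in replicates 1 and 5 and 245, 156 and 182 CPM in the others, against 38.2 to 261 CPM untreated. Chemokine genes had a median of -1.28 over 11 genes with run set and -0.39 without, and none was called. Cxcl9, an interferon-induced chemokine gene mostly made by myeloid cells, was at 1.23 and 0.595 CPM in replicates 1 and 5 and at 16.6, 8.04 and 4.20 CPM in the rest, against 2.41 to 21.6 CPM untreated.

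Of the remaining lists, only the last one given here had a called gene. T cell receptor signalling genes had a median of 0.23 over 20 genes in both fits, with 16 above 0 with run set and 18 without. Antigen presentation genes had medians of -0.31 and -0.10 over 14 genes, glycolysis and hypoxia genes -0.17 and 0.15 over 19, lipid handling genes -0.24 and 0.01 over 18, and natural killer receptor genes -0.17 and -0.20 over 15. T cell cytokine genes had medians of 0.06 and 0.40 over 12 genes, homing receptor genes 0.05 and 0.11 over 20, and residency genes 0.27 and 0.59 over 10. The last list, 9 genes of invariant natural killer T cells, was drawn up after values were seen. Traj18 alone was called in it, where 0.115% of all genes rose. Its median was 0.25 with run set and 0.01 without.

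**Figure D5:**
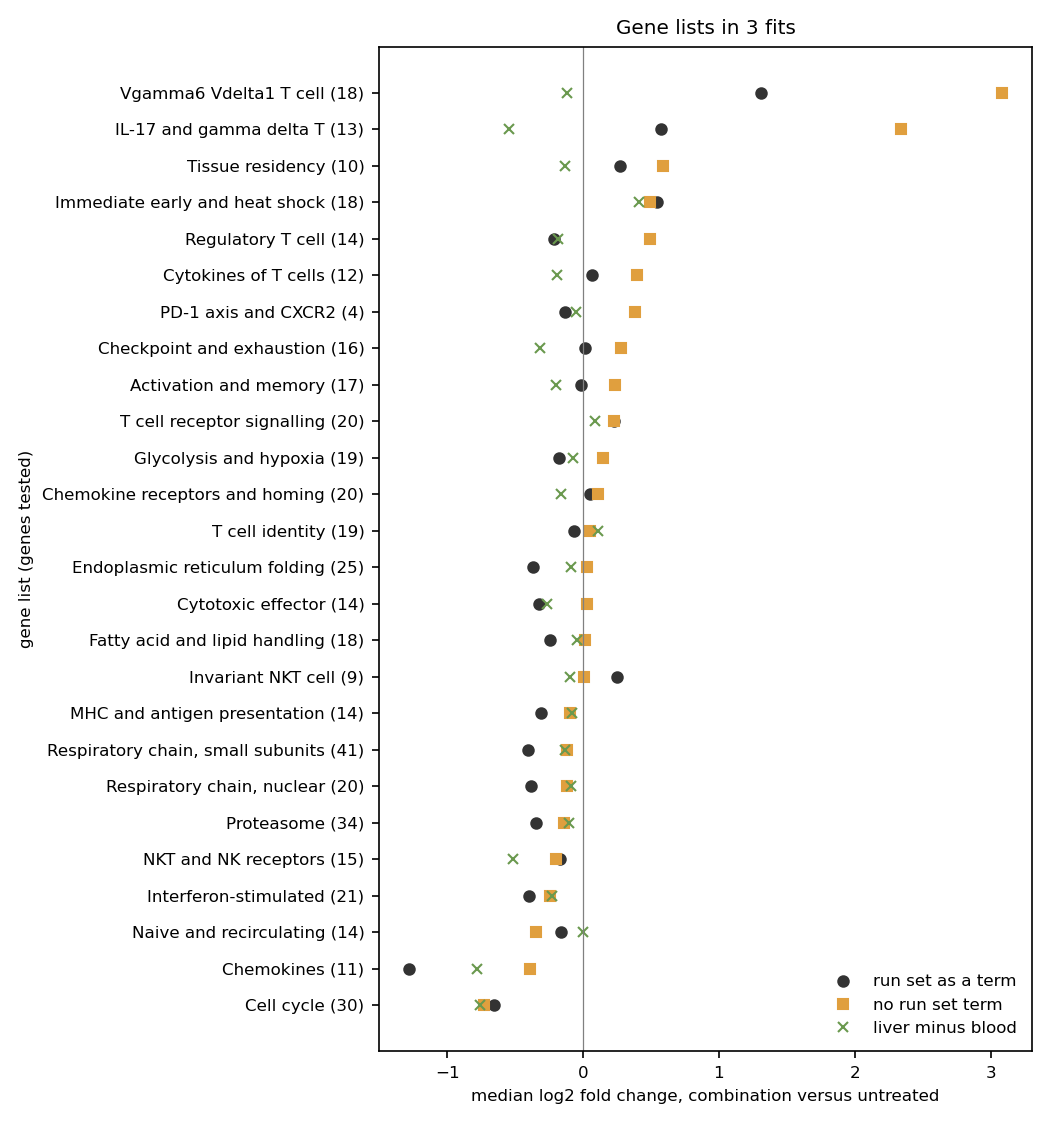
Median log2 fold change of combination against untreated for each T cell and pathway gene list (number of genes tested in brackets), with run set as a term, without it, and for the difference between liver and blood. The marker lists of other cell types are not drawn. The IL-17 and Vgamma6 lists lie farthest right without the run set term (2.34 and 3.09), the cell cycle list lies at -0.66, -0.73 and -0.76 in the 3, and the endoplasmic reticulum and respiratory lists lie below 0 mainly with the term.

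Blood T cells of the same 11 animals allowed the liver difference to be set against that in blood, with the animal as a block. None of 12833 genes passed (0%), with 1090 at an unadjusted p under 0.05 and 50 called by DESeq2. Among the smallest p-values, Stab2, a scavenger receptor gene of liver sinusoidal endothelium, and C1qa, a complement gene of macrophages, were lower (-5.60 ± 0.77, adjusted p = 0.0654, and -5.41 ± 0.83, adjusted p = 0.0771, edgeR). Both belong to other cell types. C1qa was at 20.0, 38.4 and 16.7 CPM in untreated replicates 1, 2 and 6 and between 1.52 and 3.91 CPM in the other 3, so its untreated level rests on 3 libraries. Stab2 was at 31.0 and 19.6 CPM in untreated replicates 2 and 6, the untreated libraries with the highest hepatocyte sums, 924 and 547 CPM, and at most 0.748 CPM in the other 4. On the higher side Prdx6, an antioxidant enzyme gene, Smad7, an inhibitor of TGF-beta signalling, and Zfp36l2, which encodes an RNA-binding protein that promotes mRNA decay, had differences of 0.67 ± 0.14, 0.74 ± 0.16 and 0.72 ± 0.17 (adjusted p = 0.192, 0.199 and 0.21, edgeR). Zfp36l2 was at 186 to 387 CPM in untreated liver and at 542, 528, 714, 365 and 416 CPM in combination replicates 1, 5, 2, 3 and 4. The medians of the cell cycle and IL-17 lists in this fit were -0.76 and -0.54, and Il17a had a difference of 0.61 ± 0.76. The fits of blood alone reach beyond these 11 animals, since they hold 7 untreated blood libraries and both single-drug groups. In blood alone with run set as a term, 313 of 12387 genes passed (2.53%). Il1r1 was among them (2.85 ± 0.69, adjusted p = 0.0319, edgeR). Without the term Trdv4, Tcrg-V6 and Il23r passed in blood (6.01, 4.65 and 2.66, adjusted p = 0.00752, 0.00737 and 0.00673, edgeR). Ccr6, a chemokine receptor gene, did not (1.15, adjusted p = 0.203, edgeR). With the term Trdv4, Tcrg-V6 and Il23r had -2.81, 1.46 and 2.16 and were not called. Run and treatment partly coincide in blood as well.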

How the data were processed

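RNA of CD3-positive cells was sequenced after a stranded total RNA protocol for low input, per the labels. Raw gene counts were deposited by the authors for 37713 Ensembl genes in 199 libraries. HTSeq 0.11.2, HISAT2 2.1.0, Trim Galore 0.6.4, FastQC 0.11.8 and GRCm38 appear in the submitters' processing notes. Strand use in counting and the annotation are not given in the sources used here, which leaves antisense and overlapping genes uncertain. The 5 HTSeq summary entries (67.0% of entries in the 11 libraries) entered neither library sizes nor tests. A count of 0 allows 3 counts of a library's total, 0.320 to 0.587 CPM here, for counting error only.

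Genes were kept by filterByExpr at a minimum count of 10 and a minimum total of 15, scaled by TMM and tested by edgeR 4.0.16 (R 4.3.3) with robust quasi-likelihood, run set as a term and a Benjamini-Hochberg threshold of 0.05, over all 22 liver T cell libraries of DEN ALIOS mice. The standard error is the size of the log2 fold change over the root of its F. DESeq2 1.42.0 was an alternative. Liver against blood used the animal as a block: deviations of the same animal correlated by 0.28 on average, and those of different animals by -0.03. Title numbers do not pair the samples. No library was a copy of another: chi-square per degree of freedom within a group was at least 11.1. The steps were tested on simulated data.

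Named genes were drug targets, up to 3 called members of each list or the 2 with the smallest p, and the 10 largest rises and falls at 10 CPM or more, filled up by smallest p, of which the text prints a part. Chosen after their values were seen were Cd4, Cd8a, Bcl11b, Traj18, Ambra1, Plekha5, Bicra, Gm16069, Gm4204, Hspa5, Il23r, Trdv4, Tcrg-V6, Sox13, Maf, Zbtb16, Ccr6, Mki67, Bub1, Hmmr, Kif11, Kif20a, Gzmb, Ifng, Foxp3, Ctla4, Siglech, Ccr9, Alb and Malat1. Members and lists were chosen with earlier results of these data known, and the lists for endoplasmic reticulum folding, small respiratory subunits, proteasome, Vgamma6 cells and invariant NKT cells after values here were seen. Exon lengths are the union of exons in GENCODE vM21. Figures were drawn with matplotlib 3.10.9.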

Additional observations from a re-analysis of the deposited data

Results flagged for a closer look

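A value was looked at again where 1 library lay far from the others of its group by Dixon's criterion, which chance meets in about 1 of 20 groups. Of 232 sets of values 13 met it, close to that rate. On the log2(CPM + 0.5) scale, the combination libraries so marked were replicate 4 for C1qa at 4.00 (others 1.53 to 2.20), replicate 2 for Cd274 at 6.00 (5.21 to 5.42), and replicate 3 for Bub1 at 1.69 (2.59 to 2.90). Untreated replicate 6 was marked for Canx at 8.51, Cox7a2 at 4.07, Gbp2 at 6.12 and Ambra1 at 6.29, the first 3 low and the last high. Untreated replicate 2 was marked for Pdia6 at 6.28, for Tcrg-V6 at 0.34 and for the summed platelet markers at 3.83. Untreated replicate 1 was low for Fos at 2.91 and Neat1 at 7.53, and untreated replicate 3 was high for Ldha at 7.84.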

How the results depend on the processing

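The 22 calls (15 higher and 7 lower) depend on the choices made. Counts of 0 came from dropping the run set term, in the fit of all 22 libraries and of the 2 groups alone, from no filter on low counts, from a minimum 2-fold change, from the replicate block with run set, and from adding the share of entries with no feature, an alternative chosen after seeing the data; between 74 and 2477 genes had an unadjusted p under 0.05 there. Single runs as a term gave 12 (7 and 5), only the 2 groups with run set 170 (132 and 38), DESeq2 462 (248 and 214), and dropping the library labelled Vehicle 4 (3 and 1). Run set A alone gave 22 (18 and 4), of which 8 were among the original 22, and RLE scaling 27 (19 and 8). Without the combination libraries of run set A and with no run set term, also added later, 14 passed (5 and 9). Leaving out 1 library at a time moved the count between 0 and 133, the rises between 0 and 81 and the falls between 0 and 52. It was 0 without untreated replicate 1 or combination replicate 1 or 5, 98 without untreated replicate 2, 133 without untreated replicate 6, and 4 to 11 without each of the other 6. The 22 genes were all called under DESeq2, RLE scaling and without untreated replicate 2 or 6, and 21 of them with only the 2 groups and run set. Title numbers pair nothing here: same-numbered libraries correlated by -0.31 to 0.06, no library best with its own number, and the replicate block without run set gave 0 calls.

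Without run set, DESeq2 called 76 genes, and the other alternatives 0. For liver minus blood, DESeq2 called 50, no filter 3 and run set A animals alone 13. Leaving out 1 animal gave 0 to 21, with 21 without combination replicate 2, 6 without combination replicate 1, 4 without untreated replicate 1 and 2 without combination replicate 3. Fold changes of called genes turned sign for Sdf2l1 with no run set term, at 0.081 in all libraries and 0.079 in the 2 groups, and at 0.55 without the run set A combination libraries. In that last setting Ndufa1 had 0.22, Uqcr10 0.10, Lncpint -0.013 and Crtc1 -0.074. The cause was not tested. PD-1 axis genes stayed uncalled under every alternative run. No library was under 1000000 counts, so the depth alternative was not run, and a number block was not fitted for liver minus blood, where the animal is the block.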
